A study of Mus musculus with 4 samples.

Results

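Genes of alternatively activated (M2-like) macrophages and of lipid handling, 9 in all, were followed across 4 arrays of sorted mouse blood progenitors: Mrc1, Arg1, Chil3, Retnla, Il4ra, Lpl, Apoe, Cd36 and Pparg. They were taken by name, 9 of 18193 genes with a named probe set, through all 14 probe sets that the platform annotation assigns to 1 of these symbols alone. Where a gene had several probe sets, the one brightest on average stands for it, and the others are given beside it. The arrays held RNA of Trib1-/- MDP, wild-type MDP, Trib1-/- GMP and wild-type GMP, 1 array each. GMP is the granulocyte monocyte progenitor. MDP carries the cell type label macrophage dendritic cell, and is the usual short name of the progenitor of macrophages and dendritic cells. All mice had a mixed C57BL6J/129SV background, and the sorted cells were unstimulated and untreated. The ages of the mice, the sort gates, the number of animals behind each array and the part of Trib1 that was deleted are not stated in the labels. With 1 array per group no spread between animals or sorts can be estimated, so no test was made and no difference below has a replicate check.

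Interleukin-4 and interleukin-13 act through receptors that contain the Il4ra chain and signal through STAT6, and macrophages exposed to them take up a programme known as alternative activation. Mrc1, Arg1, Chil3 and Retnla are its textbook markers in the mouse. The nuclear receptor encoded by Pparg binds fatty acid derivatives, pairs with retinoid X receptors and controls genes of lipid uptake such as Cd36 and Lpl. Trib1, the deleted gene, encodes an adaptor that directs C/EBP transcription factors to ubiquitin-dependent degradation, and mice lacking it are known for a shortage of M2-like tissue macrophages.

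Values are log2 RMA values, in which a difference of 1 is 2-fold. The array medians lay between 3.27 and 3.31. A floor was set at the median of all values, 3.29, below which a value is close to background. Both Trib1 probe sets read above the floor on all arrays and differed between genotypes by -0.43 and -0.41 in MDP and by 0.15 and 0.34 in GMP, so the targeted gene does not check the genotype labels, and whether the probes lie in the deleted part is not known here. The cell labels were set against markers. All 6 GMP markers (Cd34, Kit, Fcgr3, Mpo, Elane and Cebpa) exceeded the floor on both GMP arrays, but 4 did so in Trib1-/- MDP and 5 in wild-type MDP, so presence alone does not separate the progenitors. All 6 were at least 2-fold lower in wild-type MDP than in wild-type GMP, where 12.4% of all genes were. In Trib1-/- MDP against Trib1-/- GMP 4 were, where 4.08% were. Of 6 MDP markers (Flt3, Csf1r, Cx3cr1, Kit, Cd34 and Irf8), 3 were at least 2-fold higher in MDP in each genotype. Of all genes, 4.16% were in wild type and 2.75% in Trib1-/- cells. Cd34 and Kit, which are in both lists, were lower in MDP, and Cx3cr1 differed by 0.34 in wild type and 0.30 in Trib1-/- cells. Csf1r, the receptor of macrophage colony-stimulating factor, read 7.81 in Trib1-/- MDP and 7.82 in wild-type MDP, against 6.01 in Trib1-/- GMP and 6.0 in wild-type GMP. Flt3, a receptor of dendritic cell progenitors, read 5.50 in Trib1-/- MDP and 4.85 in wild-type MDP, against 2.66 in Trib1-/- GMP and 2.95 in wild-type GMP. Kit, a stem cell factor receptor often used to define the MDP, was below the floor in Trib1-/- MDP (2.69) and wild-type MDP (2.43).

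Mrc1 and Lpl stood apart from the other members. Both were highest on the wild-type MDP array, and both were lower on the Trib1-/- MDP array. Mrc1 was lower by 4.66-fold, and the main probe set of Lpl by 3.16-fold with values under the floor set to it. The size of the Lpl difference depended on the probe set and on how values near background were treated. Mrc1 encodes the mannose receptor, a macrophage surface lectin that takes up glycoproteins. Its single probe set read 4.24 in Trib1-/- MDP, 6.46 in wild-type MDP, 3.51 in Trib1-/- GMP and 3.83 in wild-type GMP. All 4 values were above the floor. The genotype difference in MDP was -2.22, which is 4.66-fold lower in Trib1-/- MDP. Lpl encodes lipoprotein lipase, the secreted enzyme that frees fatty acids from triglyceride-rich lipoproteins. Its main probe set read 2.66 in Trib1-/- MDP, 4.95 in wild-type MDP, 2.50 in Trib1-/- GMP and 2.95 in wild-type GMP. Only the wild-type MDP value was above the floor. The genotype difference in MDP was -2.29, or 4.88-fold lower in Trib1-/- MDP, and -1.66, or 3.16-fold, once values under the floor were set to it. The other Lpl probe set was below the floor on all arrays, at 2.36 in Trib1-/- MDP, 3.16 in wild-type MDP, 2.38 in Trib1-/- GMP and 2.05 in wild-type GMP, and its MDP difference was -0.80. It was thus also highest in wild-type MDP.

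**Figure D1:**
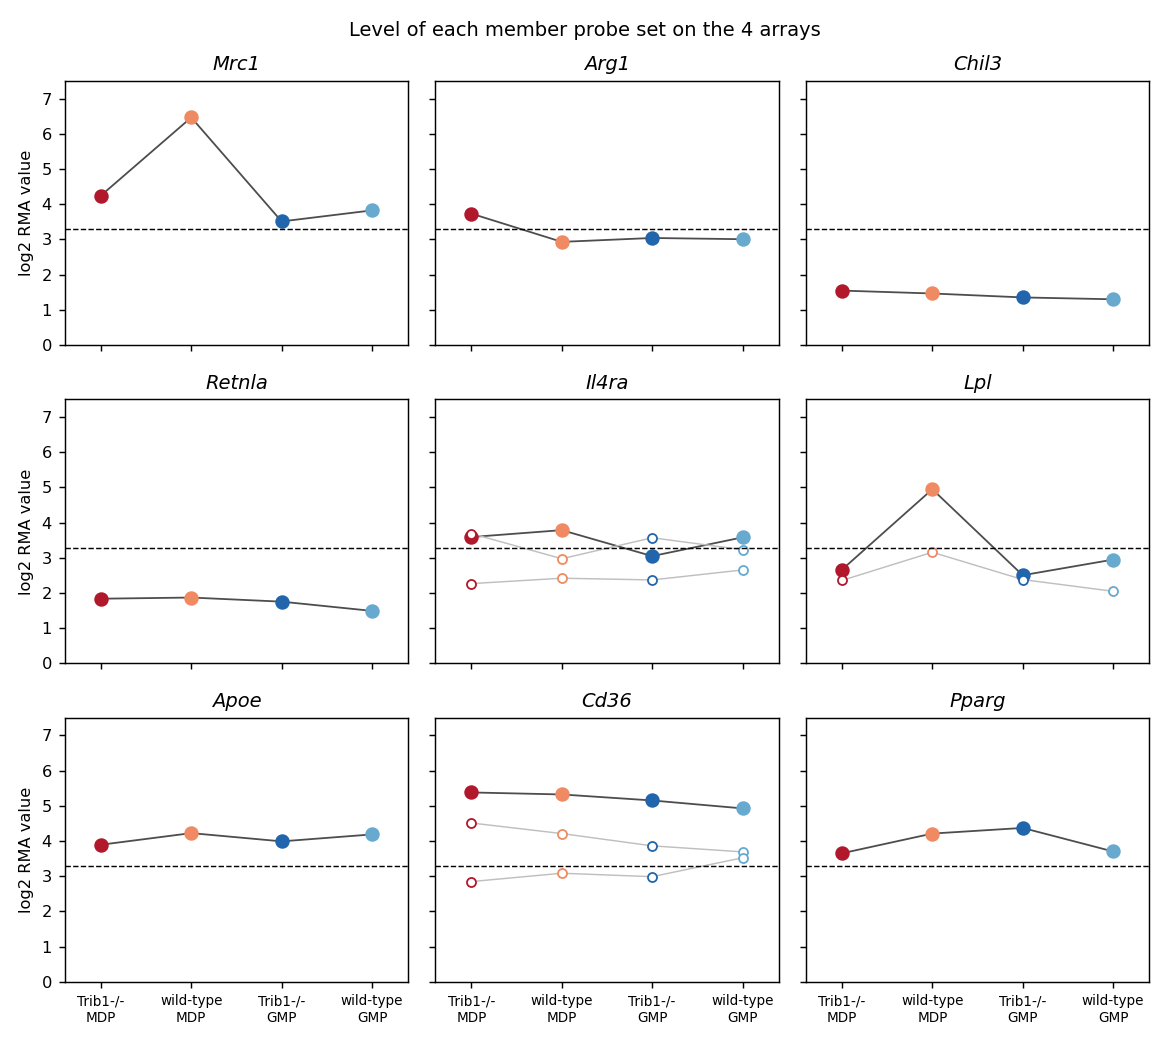
Log2 RMA value (vertical axis) of each member probe set on the 4 arrays (horizontal axis, Trib1-/- MDP, wild-type MDP, Trib1-/- GMP and wild-type GMP from left to right). Filled points are the probe set that represents the gene and open points its other probe sets, and the dashed line is the floor of 3.29. Mrc1 peaks at 6.46 and Lpl at 4.95 in wild-type MDP, while Chil3 and Retnla lie below the floor on every array.

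Of the 9 members, 7 reached the floor on at least 1 array, as did 11653 genes in all. In Trib1-/- against wild-type MDP, 2 of the 7 were at least 2-fold lower, where 1.53% of all genes were, and 0 were at least 2-fold higher, where 1.10% of all genes were. The median difference of the 7 was -0.33, beside 0.01 for all genes. With 32 added to the linear values before log2, which damps differences near background, Mrc1 stayed more than 2-fold lower (-1.24) and Lpl did not (-0.71). Lpl passed the floor through wild-type MDP alone, the array where it was high, so its count among the 7 adds no support. Ranked from the lowest difference upward with values raised to the floor, Mrc1 came 3rd and Lpl 8th of the 11653 genes, and with values as deposited 6th and 4th. The spread that the arrays allow to be measured, the SD between probe sets of 1 gene in this difference, was 0.383 over 4922 genes. It holds nothing of how animals, sorts or hybridisations vary. Messenger RNA of a whole sorted population was measured, so fewer cells that carry a transcript and less of it per cell cannot be told apart.

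In GMP the genotype differences of the 7 ran from -0.53 (Il4ra) to 0.67 (Pparg). Only 4 of the 7 reached the floor on both GMP arrays, and 2 (Lpl and Arg1) on neither. Mrc1 differed by -0.31 and Lpl by -0.44, or 0.00 for Lpl once values were raised to the floor, and the other Lpl probe set read 0.33. Of the 7 members above the floor, 0 were at least 2-fold higher in Trib1-/- GMP, where 0.481% of all genes were, and 0 at least 2-fold lower, where 3.16% were. Their median was -0.20, beside -0.06 for all genes. The genotype difference in MDP minus that in GMP was -1.91 for Mrc1 and -1.84 for Lpl, and with 1 array per group it was not tested.

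The wild-type MDP array also carries the contrast between the progenitors. Mrc1 was 6.23-fold higher in wild-type MDP than in wild-type GMP (2.64) and Lpl 4.0-fold higher, or 3.16-fold with values raised to the floor. These were 2 of 7 members at least 2-fold higher, where 4.16% of all genes were, and 0 of 7 were at least 2-fold lower, where 12.4% were. Lpl passed the floor through wild-type MDP alone, so its count here adds no support. In Trib1-/- MDP against Trib1-/- GMP, Mrc1 differed by 0.73 and Lpl by 0.16. There 0 of 7 members were at least 2-fold higher, where 2.75% of all genes were, and 0 at least 2-fold lower, where 4.08% were. The medians of the 7 members were 0.40 in wild type and 0.23 in Trib1-/- cells, beside -0.04 and -0.01 for all genes. The 2 large differences of each gene, between genotypes in MDP and between progenitors in wild type, share the wild-type MDP array and are not separate evidence.

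**Figure D2:**
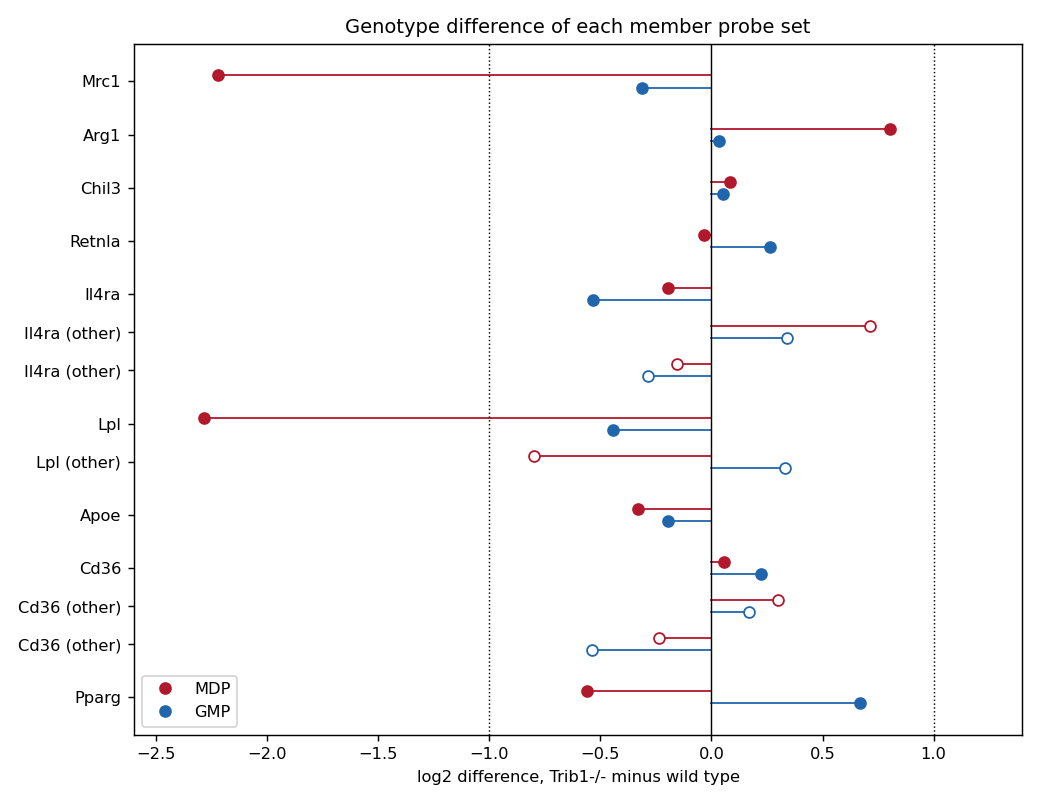
Log2 difference, Trib1-/- minus wild type (horizontal axis), of every member probe set (rows), in MDP (red) and in GMP (blue). Filled points are the probe sets that represent a gene, open points the other ones, and the dotted lines mark 2-fold. Mrc1 (-2.22) and Lpl (-2.29) in MDP lie beyond the 2-fold line, and no other point does.

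The genes closest to Mrc1 and Lpl in pattern were sought among the 11652 other genes above the floor, as the Euclidean distance between log2 profiles over the 4 arrays, each centred on its own mean. This is a description of 4 points. Lpl, C1qb, Fcna and Hmox1 were above the floor in wild-type MDP alone, so their distances rest on 1 array and on 3 values near background, and likeness among them adds nothing to what that array shows. The gene nearest to Mrc1 was Lpl itself, at a distance of 0.62, followed by C1qb (0.63) and Hmox1 (0.70). For Lpl the nearest were Fcna (0.30), C1qb (0.38) and Mrc1 (0.62). C1qb encodes a chain of complement C1q, Fcna the lectin ficolin A and Hmox1 the haem-degrading enzyme haem oxygenase. C1qb read 1.94 in Trib1-/- MDP, 4.27 in wild-type MDP, 2.02 in Trib1-/- GMP and 1.94 in wild-type GMP, and its other probe sets differed by -1.42 and -0.21 between the MDP genotypes. Fcna read 1.20 in Trib1-/- MDP and 3.42 in wild-type MDP, against 1.33 in Trib1-/- GMP and 1.38 in wild-type GMP. Hmox1 read 3.08 in Trib1-/- MDP, 4.52 in wild-type MDP, 2.47 in Trib1-/- GMP and 2.43 in wild-type GMP. Raised to the floor, the MDP differences were -0.98 for C1qb, -0.13 for Fcna and -1.23 for Hmox1.

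All 3 of these genes are in a list of 16 resident macrophage markers, drawn up with earlier results of these arrays known. Of its 13 markers above the floor, 9 were at least 2-fold lower in Trib1-/- MDP, where 1.53% of all genes were. With values raised to the floor 6 of the 13 were, as were 80 of all 11653 genes. At least 2-fold higher were 0 of the 13, where 1.10% of all genes were, and the median was -1.44 (-0.98 raised). Of these 9, 4 (Axl, C1qb, Fcna and Hmox1) passed the floor through wild-type MDP alone, where they were high. In GMP 0 of 13 were at least 2-fold apart, where 0.481% of all genes were higher and 3.16% lower. Only 5 of the 13 reached the floor in Trib1-/- GMP as well as wild-type GMP, however, and 6 in neither. The summed linear level of the 16 markers was 168 in Trib1-/- MDP, 512 in wild-type MDP, 160 in Trib1-/- GMP and 183 in wild-type GMP. C1qa, C1qc and Cd5l were below the floor on all arrays. Fcgr3, an Fc receptor gene listed among the GMP markers, moved with them, at 2.92 in Trib1-/- MDP, 4.74 in wild-type MDP, 6.74 in Trib1-/- GMP and 6.58 in wild-type GMP, a difference of -1.81 in MDP (-1.45 raised). The part of such cells, or of a shift in Fcgr3, in the Mrc1 and Lpl differences was not tested. Of 7 monocyte markers above the floor, 0 were at least 2-fold apart between the MDP genotypes, where 1.10% of all genes were higher and 1.53% lower. That count is near these shares and is no result about the set. Vcan differed by -0.60 by its main probe set and by -0.39 to 0.92 by its others above the floor. The median of the 7 was 0.01. The summed level of the 8 measured was 1499 in both Trib1-/- MDP and wild-type MDP, with F13a1 (9.37 and 9.34) its largest part. A further Ccr2 probe set, above the floor in Trib1-/- MDP alone, read 4.58 there and 2.37 in wild-type MDP (2.21, or 1.30 raised). The main Ccr2 probe set differed by 0.30 and the remaining ones by 0.45 and 0.18. All 4 measured adipocyte markers (Adipoq, Lep, Cidec and Retn), cells that also make Lpl, Cd36 and Pparg, were below the floor on all arrays. Of 6 endothelial markers, 3 (Cdh5, Emcn and Gpihbp1, whose product holds lipoprotein lipase on capillaries) were below it on all arrays, and 0 of the other 3 were at least 2-fold apart between the MDP genotypes. Only 1 of these 3 reached the floor on both MDP arrays, and 1 on neither. A count of 0 of 3 is near the shares of all genes and is no result about them.

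**Figure D3:**
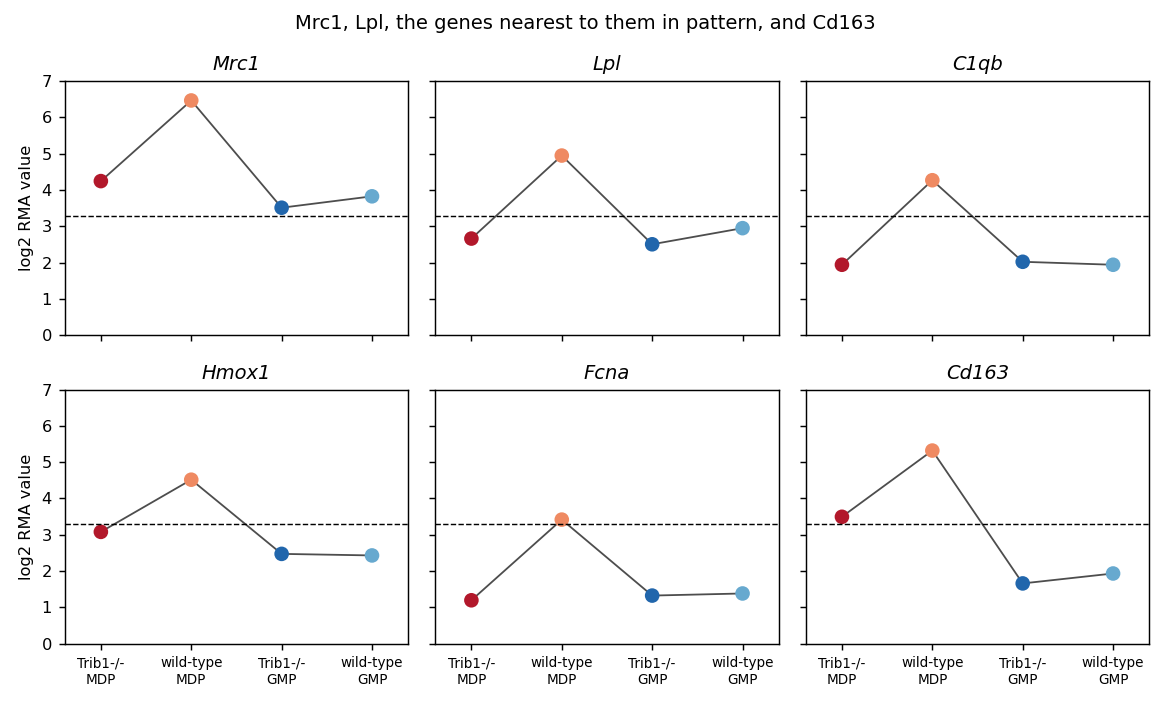
Log2 RMA value (vertical axis) on the 4 arrays (horizontal axis) of Mrc1 and Lpl, of the genes nearest to them in pattern (C1qb, Hmox1 and Fcna), and of Cd163, a further marker of alternative activation. C1qb, Hmox1, Fcna and Cd163 are all in the list of resident macrophage markers. The dashed line is the floor of 3.29. Each gene is highest in wild-type MDP, and Mrc1 and Cd163 are also above the floor in Trib1-/- MDP, at 4.24 and 3.50.

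The promoter windows of Mrc1, C1qb, Fcna and Retnla are shown. C1qb was among the genes nearest in pattern to both Mrc1 and Lpl, and Fcna among those nearest to Lpl only. A member with a large difference, genes near it or near Lpl in pattern, and a member without signal can thus be read side by side. Each is 300 bases of RefSeq, build GRCm38.p6, from 250 bases before to 50 after the annotated start, written 5′ to 3′ on the strand of the gene. Mrc1 lies at chr2:14229164-14229463 (plus strand), C1qb at chr4:136886151-136886450 (minus strand), Fcna at chr2:25627925-25628224 (minus strand) and Retnla at chr16:48842359-48842658 (plus strand). Capitals mark matches, on either strand, to 5 motifs: GAGGAA, a core of the PU.1 site, TTGCNNAA, the C/EBP motif, AGGTCA, the nuclear receptor half-site, TATAAA, the TATA box, and the STAT6 motif, which is TTC and GAA with 4 bases between them.
Mrc1: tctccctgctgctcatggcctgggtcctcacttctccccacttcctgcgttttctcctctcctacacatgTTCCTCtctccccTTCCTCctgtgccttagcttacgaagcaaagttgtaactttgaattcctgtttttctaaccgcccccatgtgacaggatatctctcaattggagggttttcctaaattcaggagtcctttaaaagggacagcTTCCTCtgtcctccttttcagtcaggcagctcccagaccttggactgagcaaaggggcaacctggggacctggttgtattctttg
C1qb: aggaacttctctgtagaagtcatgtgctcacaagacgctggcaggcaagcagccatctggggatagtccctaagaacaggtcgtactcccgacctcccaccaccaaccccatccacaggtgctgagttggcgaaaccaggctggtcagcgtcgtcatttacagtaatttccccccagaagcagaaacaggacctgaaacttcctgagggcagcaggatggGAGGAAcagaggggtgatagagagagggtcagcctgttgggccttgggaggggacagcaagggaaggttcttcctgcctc
Fcna: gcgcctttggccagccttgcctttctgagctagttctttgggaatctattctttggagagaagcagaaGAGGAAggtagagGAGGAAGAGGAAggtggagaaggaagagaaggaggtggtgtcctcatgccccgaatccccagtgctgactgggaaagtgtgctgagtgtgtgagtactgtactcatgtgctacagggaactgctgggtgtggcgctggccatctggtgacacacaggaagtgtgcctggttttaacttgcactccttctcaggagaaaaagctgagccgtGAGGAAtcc
Retnla: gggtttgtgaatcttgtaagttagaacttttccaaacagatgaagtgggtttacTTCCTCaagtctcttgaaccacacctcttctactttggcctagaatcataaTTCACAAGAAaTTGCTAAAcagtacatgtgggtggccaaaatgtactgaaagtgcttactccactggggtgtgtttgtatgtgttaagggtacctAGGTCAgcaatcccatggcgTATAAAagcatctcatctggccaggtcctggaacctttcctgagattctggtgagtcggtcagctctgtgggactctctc

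The Mrc1 window held 3 matches, all to the PU.1 core, C1qb held 1 and Fcna 4, while 28.3% of all 32851 promoter windows held at least 1. Retnla held all 5 motifs, among them the STAT6 motif at bases -145 to -136 and the C/EBP motif at -134 to -127, side by side. The C/EBP motif was found in 10.8% of all windows, the half-site in 16.3%, the TATA box in 13.6% and the STAT6 motif in 6.95%. The window of Cd163, which was also highest in wild-type MDP, held no match to any of the 5. Windows were matched for 7 members, 11 in all, of which a pair of Apoe overlap. The PU.1 core was in 5 of the 11 (Mrc1, Retnla, 2 of Apoe and 1 of Pparg), and so also in members without the pattern of Mrc1. The STAT6 motif was in 2 of the 11 (Retnla and Cd36), the C/EBP motif in 2 (Retnla and Pparg) and the half-site in 4 (Retnla, Cd36 and 2 of Pparg). Lpl and Arg1 are named only. A match is a run of letters, not a bound site.

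Among the other members that mark alternative activation, Arg1 was ordered unlike Mrc1, and Chil3 and Retnla had no signal to compare. Arg1 encodes arginase 1, which turns arginine into ornithine and urea. Its probe set read 3.73 in Trib1-/- MDP, 2.93 in wild-type MDP, 3.04 in Trib1-/- GMP and 3.01 in wild-type GMP. It was above the floor in Trib1-/- MDP alone, where it was higher than in wild-type MDP by 0.80, or by 0.45 with the wild-type value raised to the floor. That is less than 2-fold, and with all values raised to the floor 19.9% of all genes were at least as far apart. In GMP its difference was 0.03. Chil3 encodes the secreted chitinase-like protein Ym1, and read 1.55 in Trib1-/- MDP, 1.46 in wild-type MDP, 1.35 in Trib1-/- GMP and 1.30 in wild-type GMP. Retnla encodes the secreted protein Fizz1, and read 1.84 in Trib1-/- MDP, 1.87 in wild-type MDP, 1.75 in Trib1-/- GMP and 1.49 in wild-type GMP. Both genes were far under the floor on every array, so no fold is given for either, and a difference in them was not detectable here.

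Il4ra, the receptor chain shared by interleukin-4 and interleukin-13 signalling, was near the floor throughout. Its main probe set read 3.59 in Trib1-/- MDP, 3.79 in wild-type MDP, 3.05 in Trib1-/- GMP and 3.58 in wild-type GMP. The genotype difference was -0.20 in MDP and -0.53 in GMP, where the Trib1-/- value lay below the floor (-0.29 once raised). A second probe set, of the kind that can hybridise to several transcripts, went the other way, at 3.69 in Trib1-/- MDP and 2.97 in wild-type MDP (0.71), and at 3.57 in Trib1-/- GMP and 3.23 in wild-type GMP (0.34). The third was below the floor on all arrays (2.27 to 2.65). The probe sets of Il4ra thus gave no single direction between genotypes.

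Cd36 and Apoe differed little between genotypes. Cd36 encodes a scavenger receptor that imports long-chain fatty acids and oxidised lipoproteins. Its main probe set read 5.38 in Trib1-/- MDP, 5.32 in wild-type MDP, 5.15 in Trib1-/- GMP and 4.92 in wild-type GMP. The genotype differences were 0.06 in MDP and 0.23 in GMP. A second probe set had the same order of arrays, with 4.51 in Trib1-/- MDP, 4.21 in wild-type MDP, 3.86 in Trib1-/- GMP and 3.69 in wild-type GMP. The third exceeded the floor in wild-type GMP alone (3.52) and differed by -0.24 between the MDP genotypes and by -0.54 between the GMP genotypes, against the direction of the other two. Apoe encodes apolipoprotein E, a lipid carrier that macrophages secrete. It read 3.89 in Trib1-/- MDP, 4.22 in wild-type MDP, 3.99 in Trib1-/- GMP and 4.19 in wild-type GMP. It was above the floor on all arrays, its whole range was 0.33, and the differences of -0.33 in MDP and -0.20 in GMP were within the SD between probe sets.

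Pparg encodes the fatty acid sensing nuclear receptor PPAR-gamma. It read 3.65 in Trib1-/- MDP, 4.21 in wild-type MDP, 4.37 in Trib1-/- GMP and 3.70 in wild-type GMP. All 4 values were above the floor, and the genotypes were ordered oppositely in the progenitors, with differences of -0.56 in MDP and 0.67 in GMP. Neither reached 2-fold, and 16.2% and 13.4% of all genes were at least as far apart in MDP and in GMP. Lpl and Cd36 are known targets of PPAR-gamma. Pparg was highest in Trib1-/- GMP, and Lpl in wild-type MDP, the only array where it was above the floor. Cd36 was highest in Trib1-/- MDP, by 0.06 over wild-type MDP. Between the MDP genotypes Pparg (-0.56) and Lpl (-2.29) were both lower in Trib1-/- cells. A link between Pparg and these genes was not tested.

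Genes of the same pathways were read from lists drawn up with earlier results of these arrays known. Of all genes above the floor, 1.10% were at least 2-fold higher and 1.53% lower between the MDP genotypes. Between the GMP genotypes 0.481% were higher and 3.16% lower. In MDP against GMP the shares were 4.16% and 12.4% in wild type, and 2.75% and 4.08% in Trib1-/- cells. A count of 0 in lists this short is near such shares and is no result about the list. Of 20 further genes of alternative activation, 10 were above the floor. Between the MDP genotypes 1 of them was at least 2-fold lower, Cd163, the haemoglobin scavenger receptor (-1.82). Cd163 is also among the resident macrophage markers counted as lower above, so it is not separate evidence. At least 2-fold higher was 1, Il1rn, the interleukin-1 receptor antagonist (1.01). Its other probe sets (-0.58 and -0.003) were below the floor on all arrays. The median of the 10 was -0.01. In GMP 0 of 10 were at least 2-fold apart (median 0.10), but only 6 reached the floor on both GMP arrays, and 4 on neither. Cd163 read 3.50 in Trib1-/- MDP and 5.32 in wild-type MDP, against 1.66 in Trib1-/- GMP and 1.93 in wild-type GMP. The lectin genes Clec10a and Clec7a were above the floor in both MDP arrays and in neither GMP array, by 1.15 and 1.23 over GMP in wild type and by 1.58 and 1.46 in Trib1-/- cells. Raised to the floor, those of Clec10a were 0.32 and 0.82, and those of Clec7a 1.03 and 0.65. Egr2, a transcription factor of alternative activation, was lower in wild-type MDP than in wild-type GMP (-1.38). Ccl17, Ccl22, Ccl24, Il10, Mgl2, Cd209a and Stab1 were among the 10 below the floor on all arrays.

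Of 9 measured genes of interleukin-4 receptor signalling above the floor, 0 were at least 2-fold apart between the MDP genotypes (median -0.29). In GMP 1 was lower, Ptpn6, the phosphatase SHP-1 (-1.08, other probe set -0.38), with a median of -0.27. Stat6, the main transcription factor of the pathway, differed by -0.79 in MDP (3.92 in Trib1-/- MDP and 4.71 in wild-type MDP) and by -0.27 in GMP, and its other probe set by -0.36 and 0.33. In Trib1-/- MDP against Trib1-/- GMP, Jak2 (1.32, other probe set 0.37) and Ptpn6 (1.09, other probe set 0.30) were at least 2-fold higher.

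The list of lipid uptake, storage and efflux held 25 genes above the floor. Between genotypes 0 of 25 were at least 2-fold apart in MDP or in GMP. The MDP median was -0.25 with 72% of the 25 below 0, where 48.5% of all genes were. The GMP median was -0.06 with 56% of the 25 below 0, where 55.2% of all genes were. Fabp5, a fatty acid binding protein, read 8.91 in Trib1-/- MDP and 8.66 in wild-type MDP, against 8.87 in Trib1-/- GMP and 8.51 in wild-type GMP, while all 4 probe sets of Fabp4, a PPAR-gamma target, were below the floor on every array. Between the progenitors, Olr1, a receptor of oxidised lipoproteins (-1.64), and Cpt1a, which admits fatty acids to mitochondria (-1.06), were lower in wild-type MDP, and the fatty acid transporter gene Slc27a1 (1.14, other probe set 0.16) was higher in Trib1-/- MDP.

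Among lipid-sensing nuclear receptors and their coregulators, 0 of 11 above the floor were at least 2-fold apart between genotypes in either progenitor (medians 0.16 in MDP and 0.11 in GMP). Nr1h3, the oxysterol receptor LXR-alpha, came nearest, at 4.23 in Trib1-/- GMP and 3.24 in wild-type GMP (0.99), against 0.06 in MDP. Rxrb, a retinoid X receptor, was lower in wild-type MDP than in wild-type GMP (-1.56). For arginine metabolism 0 of 5 were apart between genotypes. Oat (-1.39) and the spermidine synthase gene Srm (-1.26) were lower in wild-type MDP than in wild-type GMP, and Srm also in Trib1-/- MDP than in Trib1-/- GMP (-1.44). Nos2, the inducible nitric oxide synthase that competes with arginase for arginine, was below the floor on all arrays.

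Genes of classical activation, the programme usually set against the M2-like one, showed 0 of 7 at least 2-fold apart between the MDP genotypes (median -0.08). In GMP 1 was higher, the interferon-inducible chemokine gene Cxcl10 (1.33, or 0.19 raised to the floor). Between the progenitors it was higher in wild-type MDP (1.80, or 0.67 raised), and Il1b, the interleukin-1 beta gene, was higher in Trib1-/- MDP than in Trib1-/- GMP (1.21). Of the paralogs of the members, 6 were above the floor and 0 of them were at least 2-fold apart in any of the 4 comparisons. Mrc2, a paralog of Mrc1, was below the floor on all arrays, as were Retn and Retnlb beside Retnla. Chil4, a paralog of Chil3, read 3.32 in Trib1-/- MDP, 3.14 in wild-type MDP, 2.69 in Trib1-/- GMP and 2.90 in wild-type GMP.

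**Figure D4:**
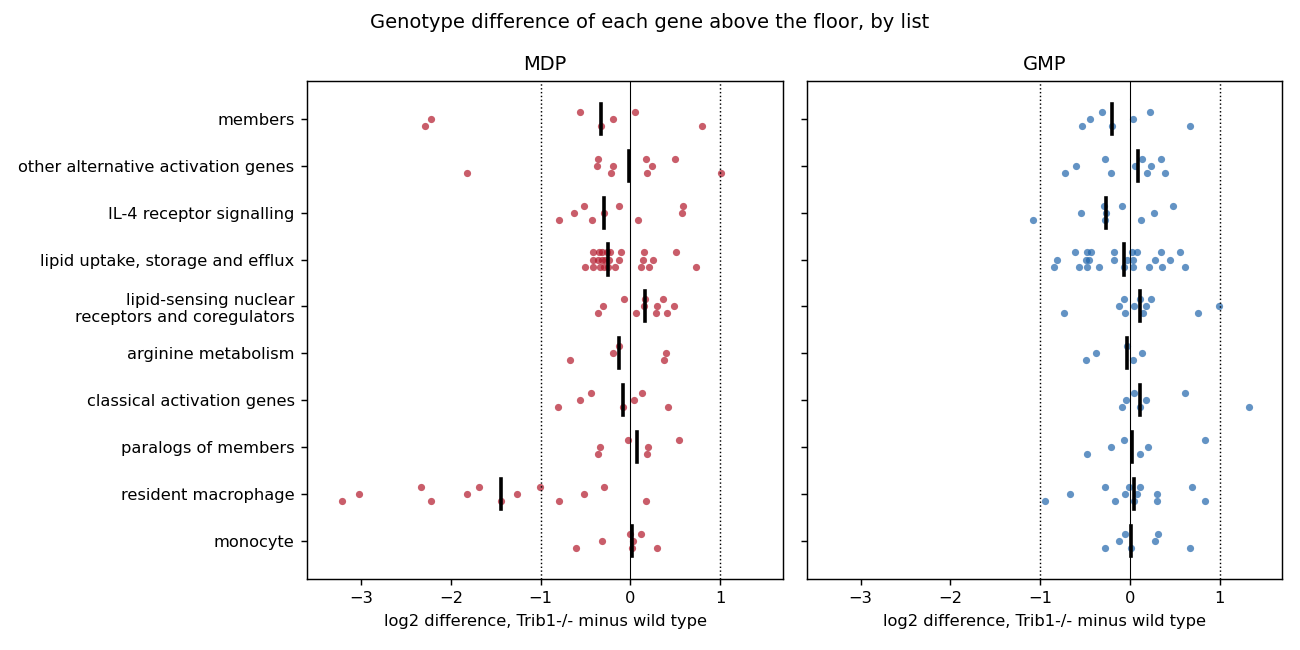
Log2 difference, Trib1-/- minus wild type (horizontal axis), of each gene above the floor (points) by list (rows), in MDP (left) and in GMP (right). Black bars are medians and dotted lines mark 2-fold. In MDP the resident macrophage markers are centred on -1.44, and in the lists above them only Mrc1, Lpl, Cd163 and Il1rn reach 2-fold. Cd163 is also among the resident macrophage markers.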

How the data were processed

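Total RNA of sorted cells was extracted with Trizol and amplified and labelled with the NuGEN Ovation system, per the labels' protocols, and measured on Affymetrix mouse arrays. The authors deposited 1 log2 value per probe set and array, made with RMA per the submitters' processing notes; the log2 scale is inferred from the range (0.141 to 14.5), while the version of RMA is not stated there. RMA makes the distributions of arrays alike, so a change in total RNA cannot be seen, and values near background understate folds.

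Of 45101 probe sets, 64 controls were left out and 34945 had 1 gene symbol (932 had several, 9160 were not listed). Differences were taken for 4 comparisons and counted from 2-fold. The 14 probe sets of the 9 members, from each list and comparison up to 4 genes with the largest differences, of which those at least 2-fold apart are described, and the 3 nearest patterns were named, and other genes were chosen after their values were seen. Members and lists were chosen with earlier results of these data known. No set or sampling test was run. The counting was tried on simulated arrays with planted differences larger than 2-fold, which checks the counting alone and not the calls made here. Alternatives were the floor (none, or the 75th percentile), raising low values to it, the mean of probe sets, leaving out _s_at, _x_at and _a_at probe sets, cyclic loess (limma 3.58.1, 3 iterations), centring on the median, adding 32 before log2, and 1.5-fold and 4-fold rules. Python 3.11.15 and pandas 2.3.3 were used. The number of arrays limits the precision.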

Additional observations from a re-analysis of the deposited data

Results flagged for a closer look

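Of 25 genes examined for this (the 7 members above the floor, the pathway list genes at least 2-fold apart in any comparison, and the nearest patterns), 11 had genotype differences of opposite sign in MDP and in GMP, while over all genes above the floor 52.4% did. None of these was tested, since each group is 1 array. The MDP difference minus the GMP difference was -1.23 for Pparg (-0.56 in MDP and 0.67 in GMP), the only member among them. It was 1.12 for Jak2, 1.54 for Olr1, 0.95 for Cpt1a, 0.76 for Slc27a1, 1.22 for Rxrb, 0.75 for Oat and 0.46 for Il1b. By their main probe sets these were higher in Trib1-/- MDP and lower in Trib1-/- GMP than in wild type. The other probe set was lower in Trib1-/- cells of both progenitors for Jak2 (-0.46 in MDP and -0.41 in GMP) and for Slc27a1 (-0.20 in each). The other Cpt1a probe sets kept the opposite signs. In wild-type MDP Olr1 (3.26) and Oat (3.19) lay below the floor. For Cxcl10 the MDP difference minus the GMP difference was -1.76, or -0.63 raised to the floor, since its wild-type GMP value of 2.15 was below it. For C1qb it was -2.41, or -0.98 raised, and for Hmox1 -1.48, or -1.23 raised. The GMP values of C1qb and Hmox1 lay below the floor in each genotype and their GMP differences were 0 once raised, so the opposite sign of these 2 rests on values near background.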

How the results depend on the processing

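No paired analysis was possible because each group has 1 array. Over 10 alternatives in 4 comparisons, 35 of 40 counts of members at least 2-fold apart stayed within 1.5 times the count reported, and 0 called differences reversed. Much of this was fixed in advance. Moving the floor alters which members are counted but not their differences, and averaging cannot alter the 6 members with 1 probe set. Between the GMP genotypes and between the Trib1-/- progenitors the count reported was 0. Leaving out _s_at, _x_at and _a_at probe sets left 4 members above the floor. With 32 added before log2, 1 member stayed apart in place of 2 between the MDP genotypes (Mrc1 at -1.24, Lpl at -0.71) and 1 between the wild-type progenitors (Mrc1 at 1.38, Lpl at 0.66). A 4-fold rule left 1 between the wild-type progenitors (Mrc1). A 1.5-fold rule counted 1 member between the GMP genotypes (Pparg) and 3 between the Trib1-/- progenitors (Mrc1, Arg1 and Pparg). Averaging probe sets gave Lpl -1.54 in MDP. Over the 8 alternatives that kept 2-fold, the genes apart ranged from 16 to 494 between the GMP genotypes (reported 424), from 3 to 431 between the MDP genotypes (306), from 365 to 2095 between the wild-type progenitors (1930) and from 126 to 891 between the Trib1-/- progenitors (795). The lowest counts came with 32 added, where 100% in place of 58.2% of the genes apart were lower in Trib1-/- MDP, and 86.8% in place of 74.9% lower in wild-type MDP. Small differences changed sign under 1 alternative each: Cd36 in GMP (0.23, or -0.05 as the mean of probe sets), and, under cyclic loess, Arg1 in GMP (0.03, or -0.01) and Apoe between the wild-type progenitors (0.04, or -0.01). Signal near background limits Lpl, Arg1, Il4ra, Chil3 and Retnla.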

Other observations

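These genes were chosen after their values were seen. Cpt1a, the gate of fatty acids into mitochondria, had 3 probe sets, each above the floor in Trib1-/- MDP, that were higher there than in wild-type MDP by 0.51, 1.48 and 1.5. The second of these read 5.13 in Trib1-/- MDP and 3.65 in wild-type MDP, against 4.87 in Trib1-/- GMP and 5.25 in wild-type GMP, so wild-type MDP was the low array. Vldlr, a lipoprotein receptor that binds Apoe and lipoprotein lipase, read 9.24 in Trib1-/- MDP, 9.12 in wild-type MDP, 8.61 in Trib1-/- GMP and 8.17 in wild-type GMP. The genotype difference was 0.12 in MDP and 0.44 in GMP, and both MDP arrays exceeded both GMP arrays. Msr1, a scavenger receptor of modified lipoproteins, had 1 of its 4 probe sets above the floor, which differed by -0.23 between the MDP genotypes.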
